A study of Homo sapiens with 6 samples.

Results

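The messenger RNAs of 8 enzymes and cofactors that write, copy and remove DNA methylation were followed in U251 cells, an established human glioblastoma line, with a control hairpin or with knockdown of TRAF2, an adaptor of the TNF receptors. The 8 genes were chosen by name, with no threshold, and looked up by symbol among the 23002 genes of the deposited table: the dioxygenases TET1, TET2 and TET3, the glycosylase TDG, the methyltransferases DNMT1, DNMT3A and DNMT3B, and UHRF1. All 8 were found. Both groups were stable U251 lines made with lentivirus and selected with puromycin. The control group (sh-NC, 3 samples) carried a non-targeting hairpin, and the knockdown group (sh-TRAF2, 3 samples) carried a short hairpin RNA against TRAF2, so that virus, selection and a hairpin were shared by all 6 samples. The vector listed for the TRAF2 hairpins also carries EGFP. The study lists 2 hairpins against TRAF2, and the labels do not say which was sequenced or whether a line grew from 1 clone. The samples of a group are described as biological replicates of its stable line, so each p-value measures the spread between samples of 1 line per group. Only RNA was measured: the levels of DNA methylation, of its oxidized forms and of the proteins were not.

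Methylation of cytosine in CpG dinucleotides is laid down on new sites by DNMT3A and DNMT3B, the de novo methyltransferases. After each round of DNA replication it is copied to the new strand by DNMT1, which UHRF1 brings to the hemimethylated sites left behind the replication fork. The TET enzymes use oxygen and 2-oxoglutarate to oxidize methylcytosine to hydroxymethylcytosine and then to formyl- and carboxylcytosine, and TDG cuts out the last forms so that base excision repair can put back an unmodified cytosine. In gliomas this balance is well known from tumours with mutant IDH, in which a product of the mutant enzyme inhibits the TET enzymes.

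After TRAF2 knockdown, the maintenance pair UHRF1 and DNMT1 rose, and TET3, TET2 and TDG fell. UHRF1 mRNA was 95.3% higher and DNMT1 mRNA 40.1% higher by group means, whereas TET3 mRNA fell by 51.5%, TET2 mRNA fell by 20.7% and TDG mRNA fell by 11.5%. The values in the next paragraphs are FPKM, fragment counts scaled to gene length and library size, so that levels of different genes can be set side by side. Whole reads behind them could be recovered, because each gene's values are multiples of 1 step. They came to between 33999558 and 36823562 reads per sample.

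As a check of the labels, the targeted gene came first. TRAF2 had 15.1, 18.4 and 15.3 FPKM in sh-NC replicates 1 to 3 and 3.26, 3.22 and 3.33 FPKM in sh-TRAF2 replicates 1 to 3. It was low in all 3 samples labelled as knockdown, with a log2 fold change of -2.27 (adjusted p = 1.16e-06 from limma). Of the markers of the line, VIM (vimentin) was at 1242 ± 38.9 FPKM in sh-NC and 1582 ± 24.8 in sh-TRAF2, and GFAP, the filament of mature astrocytes, at 0.467 ± 0.176 and 1.18 ± 0.552 (SD, n = 3), while S100B was above 0 in 1 sample, at 0.0228 FPKM. Of 10 astrocytic and glioma markers, 7 were tested, of which 4 were higher and 0 lower. The shares over all genes tested were 23.7% higher and 20.9% lower. The summed level of the marker list was 1469 to 1543 FPKM in sh-NC and 1824 to 1872 in sh-TRAF2. Of the markers of other cell types, those that stayed lowest (RBFOX3, STMN2, MBP, MOG, PTPRC, PECAM1, VWF, EPCAM and CDH1) did not exceed 0.0521 FPKM in any sample, and CSF1R and CDH5 reached 0.0871 and 0.0818 FPKM. Others on the same lists were present. The neuronal SYT1 fell from 25.1 ± 1.63 to 13.8 ± 0.533 FPKM, and SNAP25, below the filter, was at 0.297 ± 0.091 in sh-NC and 0.598 ± 0.108 in sh-TRAF2. The keratins KRT18 (17.7 ± 1.22 to 27.2 ± 0.655) and KRT8 (0.792 ± 0.0409 to 1.20 ± 0.16) and the endothelial receptor KDR (3.29 ± 0.0501 to 3.85 ± 0.348) rose, and CD68 of macrophages was not called (16.1 ± 0.363 and 15.9 ± 1.44 FPKM, all SD, n = 3). Their part in the results on the 8 genes was not tested. In bulk RNA, a smaller share of cells with a transcript and less of it per cell cannot be told apart.

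The test was limma on log2(FPKM + 0.1), a scale that understates the change of low genes, fitted to the 11870 genes whose mean reached 0.5 FPKM. A gene was called at a Benjamini-Hochberg adjusted p under 0.05. Of the 8 genes, 6 passed the filter on low values, and TET1 and DNMT3B did not. Among the 6, 2 rose (UHRF1 and DNMT1), 3 fell (TET3, TET2 and TDG) and 1 (DNMT3A) was not called. Over all genes tested, 23.7% were called higher and 20.9% lower, so a call by itself was common in this comparison. The median log2 fold change of the 6 was -0.20, against 0.02 over all genes tested, and the median absolute log2 fold change of all genes was 0.19. At the study's own threshold, which adds an absolute log2 fold change above 1, TET3 alone of the 6 was called (lower), against 0.733% of all genes in that direction. TET3 lay at the edge of this threshold: its log2 fold change was -0.92 with a pseudocount of 1, -0.98 without sh-TRAF2 replicate 1 and just short of -1 without sh-NC replicate 2, so that 0 of the 6 were then past it, whereas without sh-NC replicate 1 UHRF1 passed it too, at 1.02. The ranges of both groups were apart for 5 of the 8 genes, all 5 among the 6 tested, and for 55.5% of all genes tested.

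**Figure D1:**
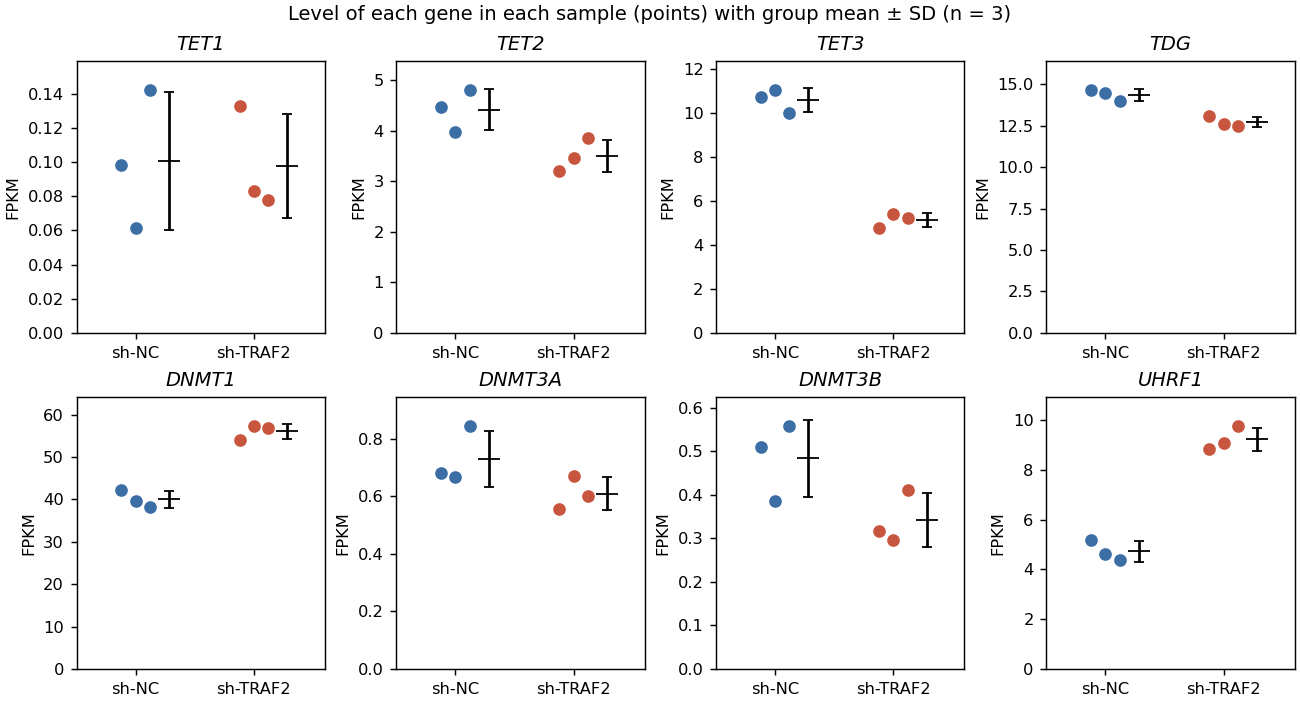
Level of each of the 8 genes in FPKM (vertical axes, each from 0) in the 3 sh-NC samples (blue points) and the 3 sh-TRAF2 samples (red points), with the group mean and SD as black bars. TET3, TET2 and TDG lie lower and DNMT1 and UHRF1 higher in every sh-TRAF2 sample than in any sh-NC sample, while the points of TET1, DNMT3A and DNMT3B overlap between groups.

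By level in sh-NC the 8 genes stood in the order DNMT1, TDG, TET3, UHRF1, TET2, DNMT3A, DNMT3B and TET1, from 40.0 to 0.101 FPKM. Neighbours in this order did not overlap between samples, except UHRF1 and TET2. In sh-TRAF2 the order was the same but for UHRF1 and TET3, which changed places, and no neighbours overlapped. UHRF1 thus went from below TET3 in each sh-NC sample to above it in each sh-TRAF2 sample. Among all genes with a read, UHRF1 moved from percentile 68.1 to 76.9 of the mean level and TET3 from 78.9 to 69.3.

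Of the TET dioxygenases, TET3 had the highest level. TET3 (chr2:73986404-74108176, plus strand, GRCh38 in GENCODE 29, as are the positions of the other genes) is the form that acts on the paternal genome of the zygote. It had 10.7, 11.03 and 9.98 FPKM in sh-NC replicates 1 to 3 and 4.78, 5.41 and 5.21 FPKM in sh-TRAF2. All sh-TRAF2 values lay far below the sh-NC range, on 5482 to 5834 reads per sh-NC sample against 2462 to 2746 in sh-TRAF2. In limma the log2 fold change came to -1.03 ± 0.066 (SE) with an adjusted p of 1.7e-05, that is 0.441 to 0.544 of the control level by its 95% confidence interval. Only 79 of the 11870 genes tested had a lower fold change. The annotation places 1 other transcript, of unproven status, across TET3 on the other strand, and the use of strand in counting is not given in the sources used here.

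TET2 (chr4:105145875-105279816, plus strand) is the paralogue that lost its own CXXC domain in evolution and is often mutated in blood cancers. Its level was 4.47, 3.98 and 4.80 FPKM in sh-NC and 3.21, 3.45 and 3.85 FPKM in sh-TRAF2. The highest sh-TRAF2 sample lay just under the lowest sh-NC sample, at a distance smaller than the SD of either group. By limma TET2 fell by 0.33 ± 0.094 (SE) on the log2 scale, with an adjusted p of 0.0219. The call was lost with no filter on low values (adjusted p = 0.0631) and when sh-NC replicate 1, sh-NC replicate 3, sh-TRAF2 replicate 1 or sh-TRAF2 replicate 2 was left out in turn (adjusted p from 0.0603 to 0.0716 from limma), with the fold change between -0.32 and -0.27. The antisense transcript TET2-AS1 overlaps it.

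TET1 (chr10:68560656-68694482, plus strand) was near the limit of detection. It had 0.0983, 0.0614 and 0.142 FPKM in sh-NC and 0.133, 0.083 and 0.0778 FPKM in sh-TRAF2, on 185 reads in all 3 sh-NC samples and 172 in all 3 sh-TRAF2 samples. A pseudogene of TET1, TET1P1, is annotated elsewhere, and the pseudogenes COX20P1 and RPS3AP37 overlap TET1 on the same strand. Some of these few reads may therefore be uncertain. The ranges of the groups overlapped (two-sided exact permutation test, p = 1). With no filter on low values the log2 fold change was -0.01, with a 95% confidence interval from -0.48 to 0.46. That scale understates changes at such a level, and limma-voom on the recovered reads gave -0.02 with an interval from -0.72 to 0.68. A change within the wider interval, in either direction, was not distinguished from no change.

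TDG (chr12:103965804-103988874, plus strand) removes the oxidized bases that the TET enzymes make. Its level was 14.6, 14.4 and 14.0 FPKM in sh-NC and 13.1, 12.6 and 12.5 FPKM in sh-TRAF2. The drop was small, below the median absolute log2 fold change of all genes tested (0.19). The groups did not overlap, as was so for 55.5% of all genes tested. By limma TDG fell by 0.17 ± 0.045 (SE) on the log2 scale, with an adjusted p of 0.0141. Without sh-NC replicate 1 it was -0.16 with an adjusted p of 0.0572, and without sh-TRAF2 replicate 3 it was -0.16 with an adjusted p of 0.0531. A pseudogene, TDGP1, is annotated elsewhere in the genome, so some reads of TDG may be uncertain.

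On the side of maintenance, UHRF1 (chr19:4903080-4962154, plus strand) had 5.18, 4.62 and 4.37 FPKM in sh-NC and 8.83, 9.09 and 9.75 FPKM in sh-TRAF2. The lowest sh-TRAF2 sample was well above the highest sh-NC sample. UHRF1 rose by 0.95 ± 0.075 (SE) on the log2 scale (limma, adjusted p = 4.19e-05), with a 95% confidence interval of 1.72 to 2.18 times the control level. Of the 11870 genes tested, 153 had a higher fold change.

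DNMT1 (chr19:10133345-10231286, minus strand) was the most abundant of the 8. Its level was 42.2, 39.5 and 38.3 FPKM in sh-NC and 54.1, 57.3 and 56.8 FPKM in sh-TRAF2, on 7472 to 10529 reads per sample. All sh-TRAF2 samples stood above all sh-NC samples. DNMT1 rose by 0.49 ± 0.047 (SE) on the log2 scale (limma, adjusted p = 0.000117), with a 95% confidence interval of 1.3 to 1.51 times the control level. S1PR2, on the same strand, overlaps the annotated span of DNMT1, so reads in the shared stretch are uncertain.

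The de novo enzymes were scarce. DNMT3A (chr2:25227855-25342590, minus strand) had 0.682, 0.667 and 0.844 FPKM in sh-NC and 0.556, 0.669 and 0.603 FPKM in sh-TRAF2. The highest sh-TRAF2 value lay just above the lowest sh-NC value. In limma this gave a log2 fold change of -0.23 ± 0.16 (SE) and an adjusted p of 0.294, with a 95% confidence interval from -0.60 to 0.15. DNMT3B (chr20:32762385-32809356, plus strand) had 0.509, 0.386 and 0.558 FPKM in sh-NC and 0.316, 0.296 and 0.412 FPKM in sh-TRAF2. These values rest on 47 to 96 reads per sample, and the groups overlapped in 1 sample each (two-sided exact permutation test, p = 0.2). With no filter on low values its log2 fold change was -0.40 with a 95% confidence interval from -0.89 to 0.09, and limma-voom on the recovered reads gave -0.51 with an interval from -1.03 to 0.01. A fall of either de novo enzyme by up to these lower bounds was thus not distinguished from no change.

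**Figure D2:**
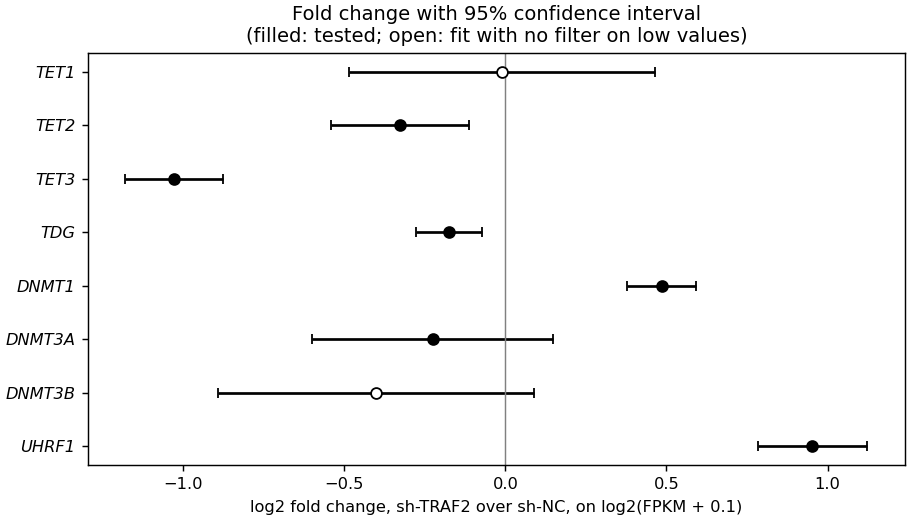
Log2 fold change of the 8 genes, sh-TRAF2 over sh-NC (horizontal axis), with bars for the 95% confidence interval. Filled points are from the fit over genes past the filter, and the open points of TET1 and DNMT3B are from the fit with no filter. TET3 at -1.03 and UHRF1 at 0.95 lie farthest from 0 of the 8, and the bars of TET1, DNMT3A and DNMT3B cross 0.

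Because FPKM is scaled to length, the levels of each family were added within a sample. The summed level of TET1, TET2 and TET3 was 15.3, 15.1 and 14.9 FPKM in sh-NC and 8.12, 8.95 and 9.14 FPKM in sh-TRAF2. The summed level of DNMT1, DNMT3A and DNMT3B was 43.4, 40.6 and 39.7 FPKM in sh-NC and 54.9, 58.2 and 57.8 FPKM in sh-TRAF2. The TET sum was therefore 0.352, 0.371 and 0.376 of the DNMT sum in sh-NC and 0.148, 0.154 and 0.158 of it in sh-TRAF2. On the log2 scale the ratio was -1.45 ± 0.049 in sh-NC and -2.71 ± 0.048 in sh-TRAF2 (SD, n = 3), a difference of -1.26 (exact permutation test, two-sided, p = 0.1, which is the lowest value 3 against 3 can give). The ratio shows unequal change of the transcripts and gives no rate of methylation or its removal.

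**Figure D3:**
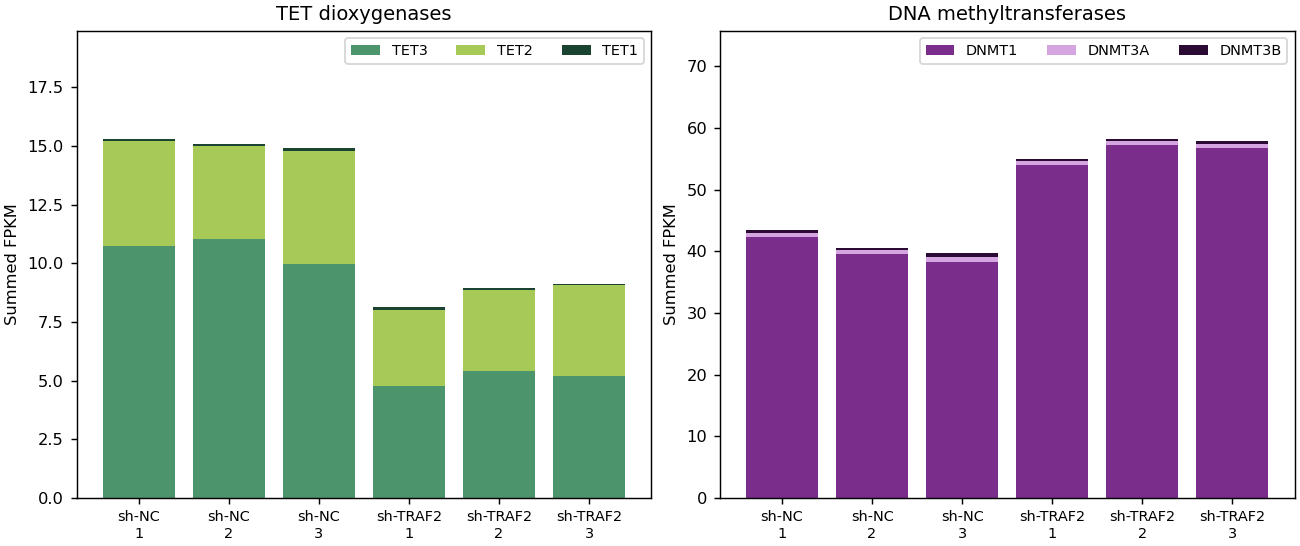
Summed FPKM (vertical axes, from 0) of TET3, TET2 and TET1 (left) and of DNMT1, DNMT3A and DNMT3B (right) in each of the 6 samples, stacked by gene. The TET bars go from about 15.1 to 8.74 FPKM by group mean and the DNMT bars from 41.2 to 57.0, with DNMT1 making up nearly all of the latter.

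The make-up of the TET family changed as well. TET3 gave 70.1%, 73.2% and 66.9% of the TET sum in sh-NC and 58.9%, 60.5% and 57.1% in sh-TRAF2. Its share was lower in every sh-TRAF2 sample, with a difference of -11.3 percentage points between group means (exact permutation test, p = 0.1, again the lowest possible). TET2 took up the difference, from 29.3 ± 2.88% to 40.0 ± 1.82% (SD, n = 3), although its own level was lower. TET1 gave 0.407% to 0.953% in sh-NC and 0.851% to 1.64% in sh-TRAF2, ranges that overlap (exact permutation p = 0.3). DNMT1 gave 97.0 ± 0.504% of the DNMT sum in sh-NC and 98.3 ± 0.0847% in sh-TRAF2 (SD, n = 3), with groups that did not overlap (exact permutation p = 0.1).

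Promoter sequences were read for the genes that rose together. RefSeq windows of 300 bases, each with 250 bases before the transcript start and 50 from it on, were at hand for all 8 genes (19 windows, GRCh38.p14). They were searched on both strands for 9 motifs, chosen after the values were seen. The E2F motif, bound by the factors that switch on S phase genes, was searched as TTTCCCGC, TTTCGCGC, TTTGCCGC and TTTGGCGC. It was found in windows of UHRF1 and DNMT1, but not in the UHRF1 window at chr19:4910117-4910416 (plus strand). None of the 15 windows of the other 6 genes held the motif. Of all 35116 windows 3.31% held it, and of the 9785 genes tested that had a window 6.92% did. These 677 genes had a median log2 fold change of 0.04, against 0.02 for those without, a difference of under 0.1. The matches are given in capitals, and the windows are shown because UHRF1 and DNMT1 are the 2 genes that rose. The first is DNMT1 at chr19:10194904-10195203 (minus strand), with the match at bases 249 to 256, across the start itself. The others are UHRF1 at chr19:4909251-4909550 (plus strand), with the match at bases 237 to 244, and UHRF1 at chr19:4909894-4910193 (plus strand), with the match at bases 91 to 98.
DNMT1: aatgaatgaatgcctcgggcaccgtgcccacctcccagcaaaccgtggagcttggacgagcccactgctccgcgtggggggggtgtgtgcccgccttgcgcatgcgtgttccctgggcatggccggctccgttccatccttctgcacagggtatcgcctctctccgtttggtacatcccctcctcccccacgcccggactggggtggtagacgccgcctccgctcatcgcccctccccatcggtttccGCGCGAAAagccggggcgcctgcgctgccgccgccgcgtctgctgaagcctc
UHRF1, first start: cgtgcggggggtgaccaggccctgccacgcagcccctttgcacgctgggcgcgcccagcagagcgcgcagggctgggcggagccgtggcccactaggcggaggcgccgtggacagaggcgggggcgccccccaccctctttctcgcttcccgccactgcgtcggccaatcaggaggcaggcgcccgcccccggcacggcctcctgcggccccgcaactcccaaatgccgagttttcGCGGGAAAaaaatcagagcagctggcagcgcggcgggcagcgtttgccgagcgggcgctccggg
UHRF1, second start: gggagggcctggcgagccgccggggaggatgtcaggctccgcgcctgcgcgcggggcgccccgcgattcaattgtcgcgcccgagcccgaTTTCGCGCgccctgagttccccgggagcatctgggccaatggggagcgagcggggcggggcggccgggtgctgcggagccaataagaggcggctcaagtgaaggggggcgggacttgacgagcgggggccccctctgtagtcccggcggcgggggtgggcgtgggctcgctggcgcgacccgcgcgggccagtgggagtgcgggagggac

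A match is a description and not a site of binding. The CCAAT box (CCAAT) was in windows of 5 of the 8 genes (UHRF1, TET1, TET3, TDG and DNMT3B), the GC box (GGGCGG) in those of 4 (TET2, TET3, DNMT3A and UHRF1) and the cell cycle homology region (TTTGAA) in those of TET2 and DNMT3A. The NRF1 word GCGCATGCG was in DNMT1 alone. The words TGACGTCA (CRE), GGGACTTTC (NF-kappaB), TGACTCA (AP-1) and CCGGAAGT (ETS) were in none of the 19 windows. These were held by 34.6% (CCAAT), 45.0% (GC box), 15.2% (TTTGAA), 1.92% (NRF1), 1.85% (CRE), 0.387% (NF-kappaB), 4.95% (AP-1) and 4.14% (ETS) of all windows. Counted by gene, as for the 8, the shares of the 9785 tested genes with a window were higher. They were 44.0% (CCAAT), 76.2% (GC box), 13.9% (TTTGAA, lower than by window), 4.54% (NRF1), 3.98% (CRE), 0.521% (NF-kappaB), 4.97% (AP-1) and 10.7% (ETS). In the 3 printed windows only GC boxes of the second UHRF1 window touch each other, at base 148, and no E2F word overlaps another motif. The 3 windows hold 30, 36 and 40 CpG dinucleotides, and the UHRF1 window that is not printed holds 46. The windows of TET3 hold 45 and 33, those of DNMT3A 18 to 46, those of TET2 13 and 35, and that of TDG 22. The single window of DNMT3B holds 3 and those of TET1 hold 6 to 11.

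Genes of DNA replication were higher in the same samples as UHRF1 and DNMT1. Of 20 S phase genes, all tested, 12 rose, 2 fell and 6 were not called, with a median log2 fold change of 0.22. For this and the lists below, the shares over all genes tested were 23.7% called higher and 20.9% called lower. MCM6 and MCM3, subunits of the replicative helicase, rose by 1.26 and 1.18 on the log2 scale (adjusted p = 5.8e-06 and 3.79e-06 from limma), from 6.99 ± 0.528 to 16.9 ± 0.781 FPKM and from 16.1 ± 0.977 to 36.7 ± 1.4 FPKM (SD, n = 3). RRM2, a subunit of ribonucleotide reductase, rose by 0.87 and E2F1, an activator of S phase genes, by 0.67. MCM5, CDC6 and GINS1 were among those not called, and GINS2, a subunit of the replicative helicase complex, fell by 0.39. The summed level of the 20 was 403 to 455 FPKM in sh-NC and 540 to 587 in sh-TRAF2. Of 12 genes of G2 and mitosis, 8 rose and 0 fell, with a median of 0.26, and CDC20, an activator of the anaphase-promoting complex, rose by 0.56. MKI67 was not called, with a log2 fold change of 0.03. The part of cell cycle phase in the rise of UHRF1 and DNMT1 was not tested.

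Of 8 partners of maintenance methylation, all tested, 4 rose, 1 fell and 3 were not called, against 23.7% higher and 20.9% lower over all genes. PCNA, the replication clamp that DNMT1 binds, rose by 0.70 on the log2 scale (adjusted p = 6.67e-05 from limma), from 32.96 ± 1.88 to 53.8 ± 3.59 FPKM (SD, n = 3). CDCA7 and HELLS, which together form a chromatin remodeller needed for methylation of heterochromatin, rose by 0.67 and 0.49, and UHRF2, the paralogue of UHRF1, by 0.19. KAT5, an acetyltransferase, fell by 0.45, and USP7, a deubiquitinase that binds DNMT1 and UHRF1, was not called (log2 fold change -0.10, adjusted p = 0.103).

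Of 10 partners of de novo methylation, 8 were tested, of which 1 rose, 1 fell and 6 were not called. Beside the counts of this paragraph stand 23.7% called higher and 20.9% called lower over all genes tested. TRIM28, a corepressor of zinc finger proteins, rose by 0.31, and NSD1, which lays down the histone mark read by DNMT3A, fell by 0.30. DNMT3L, the cofactor of both de novo enzymes in germ cells, reached at most 0.0202 FPKM in any sample. A list of 10 proteins of the MBD and ZBTB families, which hold the readers of methylated DNA, was tested in full, of which 6 fell, 1 rose and 3 were not called, with a median log2 fold change of -0.17. The readers ZBTB38, ZBTB33 (Kaiso) and MBD2 fell by 0.45, 0.19 and 0.15. ZBTB4 was the 1 gene of the list that rose, by 0.17 (adjusted p = 0.0171 from limma), and MBD1 and MBD4 were not called. MBD6 and MBD5, which fell by 0.54 and 0.51, carry the domain but are not known to bind methylated CpG, nor is MBD3, which was not called.

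Of 10 partners of the TET enzymes and enzymes of 2-oxoglutarate, 9 were tested. Of these, 3 fell, 2 rose and 4 were not called. Over all genes tested the shares were 20.9% lower and 23.7% higher. Counts near these shares, here and in the lists that follow, are no result about a list. PROSER1, which joins TET2 to the glycosyltransferase OGT, fell by 0.53 on the log2 scale (adjusted p = 7.27e-05 from limma), from 26.5 ± 0.109 to 18.3 ± 0.887 FPKM (SD, n = 3), and CXXC5, a CXXC-domain protein that binds TET2, fell by 0.52. OGT was not called (log2 fold change -0.05). IDH3A, a subunit of a mitochondrial enzyme that makes 2-oxoglutarate, rose by 0.39, while IDH1, the more abundant cytosolic enzyme that makes it, fell by 0.30 (64.5 ± 7.63 to 52.3 ± 2.42 FPKM, SD, n = 3). Of 14 genes of base excision repair and the GADD45 family, 12 were tested, and 5 rose, 2 fell and 5 were not called. UNG, NEIL3, GADD45A and GADD45B rose by 0.29 to 0.46, and the glycosylase SMUG1 and the endonuclease APEX1 each fell by 0.22. Of 12 genes of the methyl donor cycle, 10 were tested, and 4 fell, 2 rose and 4 were not called. MAT2B, AHCYL1 and MTR fell by 0.21 to 0.29, and SHMT1 rose by 0.45.

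Germline genes that many cells hold silent by promoter methylation were looked at as a list of 18, of which 14 were in the table. MAGEA3 and MAGEA6, which are near-identical copies and share reads, were already high in sh-NC at 27.1 ± 0.869 and 41.8 ± 1.62 FPKM (SD, n = 3), and rose by 0.14 and 0.20 on the log2 scale (adjusted p = 0.0232 and 0.0253 from limma). The other 12 were below the filter on low values. Read numbers this low are lower bounds, since the smallest whole numbers were taken. MAGEB2 was at 0.0163 ± 0.0282 FPKM in sh-NC and 0.0988 ± 0.0276 in sh-TRAF2 (SD, n = 3), with at least 3 and 17 reads. MAEL was at 0.024 ± 0.0117 and 0.0684 ± 0.0231 FPKM, with at least 7 and 19 reads. Most reads of both were in sh-TRAF2, as for MAGEA1, with at least 2 control reads against 7 after knockdown. For other genes the balance was reversed. SYCP3 had at least 11 control reads against 6 after knockdown, SYCP1 5 against 2 and DAZL 6 against 0. STK31 was nearly level, with 10 against 9. The 12 thus shared no direction, and not 1 of them was tested. None of these 12 exceeded 0.123 FPKM in any sample.

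Matches of the hairpins to the 8 transcripts were read for the genes that fell. Neither of the 21-base targets of the 2 hairpins against TRAF2 was found in a transcript of the 8 genes, whose longest shared run was 7 to 10 bases, against 21 in TRAF2. In these same data, transcripts with bases 10 to 16 of the sh-TRAF2#1 target in the 3′UTR, or with bases 11 to 16 followed by A, were lower: the median log2 fold change was -0.11 for 1133 carriers of the first word and -0.09 for 1708 of the second, against 0.02 and 0.03 for the others of 10610 genes. As the words were picked from these data, the lower medians follow in part from the choice and are no independent support. The same positions of the sh-TRAF2#2 target, the other hairpin, gave medians of -0.04 for 1148 carriers and -0.03 for 1629 carriers, against 0.02 for the others, and of the 8 genes DNMT3A alone held one of these words. The longest annotated 3′UTR of TET3, of 6000 bases, holds the second word at 2 places, chr2:74103389-74103395 and chr2:74106283-74106289 (plus strand), and not the first. DNMT3A holds the first word at chr2:25228379-25228385 (minus strand), DNMT3B the second at chr20:32808524-32808530 (plus strand), and TET2, TDG, TET1, DNMT1 and UHRF1 hold neither. The target is shown with the first word in capitals, and each site with the word that it holds. The A that ends the second word is not in the target, which has G at that place. They are shown since TET3 fell most and TET2 and TDG fell without a word. The part of these matches in the fall of TET3 was not tested.
sh-TRAF2#1 target: cccttgcagATTCCACgccat
TET3, first site: ccctgaatTTCCACAttggacaa
TET3, second site: ctttttggTTCCACAcctgtctt
DNMT3A site: tactccacATTCCACgcagctaa
DNMT3B site: agagtattTTCCACAatgatgat

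For each of the 5 called genes, the tested genes with the closest course over the 6 samples were found by the distance between centred log2 values. Nearest to UHRF1 were RCC1 (log2 fold change 0.95, distance 0.144) and RNASEH2A (0.92, distance 0.144), and nearest to DNMT1 were IER2 (0.50) and NOSIP (0.46). Nearest to TET3 were MDC1 (-1.12, distance 0.117) and WBP1L (distance 0.117), nearest to TET2 were ANKMY2 and NFE2L1 (both -0.32), and nearest to TDG were BZW2 (-0.16) and DAP (-0.18). With 2 groups of 3, this likeness mostly restates the fold change.

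The fold changes of the 6 tested genes kept their sign in all 15 other settings. TET3 stayed between -1.07 and -0.92, UHRF1 between 0.84 and 1.02 and DNMT1 between 0.43 and 0.53, and each was called in all 15. TET2 was called in 10 of 15 and TDG in 13 of 15, and DNMT3A in 0 of the 14 settings that kept it.

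**Figure D4:**
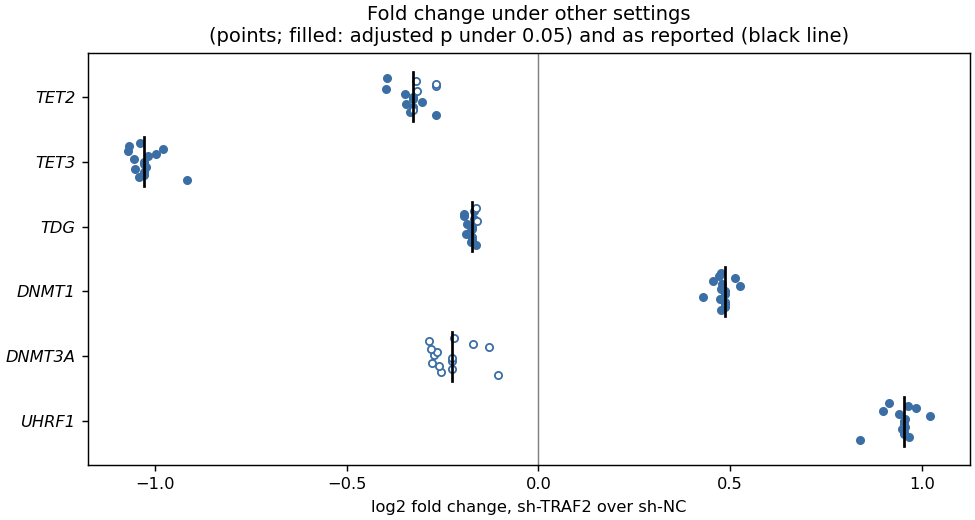
Log2 fold change (horizontal axis) of the 6 tested genes under 15 other settings (points, filled where the adjusted p was under 0.05) and as reported (black line). The points of TET3, DNMT1 and UHRF1 are all filled and lie away from 0, those of TET2 and TDG are partly open, and those of DNMT3A are all open.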

How the data were processed

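RNA of 3 sh-NC and 3 sh-TRAF2 samples of U251 cells was sequenced and processed by OE Biotech, and the authors deposited 1 table of FPKM per gene and sample. HISAT2, HTSeq, DESeq2 and R 3.2.0 are listed in the submitters' processing notes. The genome build, the annotation and the use of strand are not given in the sources used here. All 6 columns were assigned by their labels.

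Samples were compared with limma 3.58.1 in R 4.3.3 (eBayes with a trend, two-sided) on log2(FPKM + 0.1), for 11870 genes with a mean of at least 0.5 FPKM, with Benjamini-Hochberg adjustment. In a test on simulated data with 200 of 11870 genes changed, 94.0% of changes of 1 and 97.0% of changes of 2 on the log2 scale were called, with 6 unchanged genes called. In the real data far more genes were called, and all called enzymes but TET3 changed by less than 1. The simulation gives no rate for such smaller changes. Reads were recovered as the smallest whole numbers in the ratios of a gene's values, to a relative tolerance of 1e-09; for 2643 genes seen in 1 sample they were set to 1, and low counts are lower bounds. Replicates differed by more than counting noise (chi-square 5.25 to 13.1 per gene). 

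The 8 genes, the lists and the tests were chosen with earlier results of these data known. Named were the 8 genes, TRAF2, GFAP, VIM, up to 4 called genes of each list by adjusted p, and the 2 nearest genes of each called enzyme. Others, such as MCM5, CDC6, GINS1, GINS2, MKI67, USP7, UHRF2, OGT, IDH1, MBD1, MBD2, MBD3, MBD4, MBD5, ZBTB4, MAGEB2, SMUG1, APEX1, DNMT3L, MAEL, SYCP3, DAZL, SYCP1 and the marker genes, were named after their values were seen. Positions of other motifs, hairpin words and likeness were also looked at with values known. A few genes that these rules would name are not reported here. Locations are from GENCODE 29 and promoters from RefSeq. Alternatives were other pseudocounts (1, 0.01) and filters (none, 1 FPKM), TPM, quantile normalization, a replicate block, no trend, limma-voom on recovered reads (14130 genes with a mean of at least 10) and each sample left out. Values were prepared in Python 3.11.15 with pandas 2.3.3 and numpy 2.4.6; exact tests used scipy 1.17.1, and figures matplotlib 3.10.9.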

Additional observations from a re-analysis of the deposited data

How the results depend on the processing

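Over 211 comparisons of a result with an alternative, 199 were held the same, 7 were weaker, 5 moved and 0 reversed. A fold change was held the same if it kept its sign and its side of the adjusted p threshold. Shares and the ratio were judged by sign alone, without a threshold. Counts were allowed a margin, so that 2 genes called lower with no filter on low values, in place of 3, was held the same. The 7 were those of TET2 and TDG given beside their values. The number of the 8 genes past an absolute log2 fold change of 1 was 1 (TET3) as reported and 0 with a pseudocount of 1, which pulls fold changes towards 0, and with each sample left out it ranged from 0 to 2. It was 0 without sh-NC replicate 2 and 0 without sh-TRAF2 replicate 1, and without sh-NC replicate 1 it was 2, as UHRF1 then reached 1.02. The number called lower was 3 as reported and ranged from 1 to 3 with each sample left out, the 1 being TET3, without sh-NC replicate 1. The cause was not tested. Same-numbered samples did not deviate together, with correlations of -0.0812, 0.0722 and 0.0728 for numbers 1 to 3, and not every sample correlated best with its own number. With the replicate number as a block, 2912 genes were called higher and 2539 lower in place of 2818 and 2479, and of the 8 genes 2 were called higher and 3 lower. The difference in the TET to DNMT ratio was -1.26 with the same pairing (exact sign-flip test, p = 0.25, the smallest that 3 pairs allow). TET1 and DNMT3B rest on at most 89 and 96 reads per sample.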

Other observations

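Of 10 interferon response genes, all tested, 10 rose and 0 fell, against 23.7% higher and 20.9% lower over all genes tested. Their median log2 fold change was 1.07, and their summed level was 293 to 442 FPKM in sh-NC against 609 to 846 in sh-TRAF2. ISG15, a ubiquitin-like modifier, had 152 ± 21.2 FPKM in sh-NC and 327 ± 36.4 in sh-TRAF2 (SD, n = 3), and rose by 1.11 on the log2 scale (limma, adjusted p = 0.000115). KRT18, an epithelial keratin, rose by 0.62 on the log2 scale and SYT1, a synaptic vesicle protein, fell by 0.86. These lists were among those chosen with earlier results known, and whether they move with the methylation enzymes was not tested.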
